A study of Citrus trifoliata and Citrus junos with 20 samples.

Results

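The difference between 2 citrus rootstocks in the response of their root miRNAs to pH 9.5 was measured as a difference of differences. For each miRNA the log2 change from pH 6.5 to pH 9.5 in Ziyang xiangcheng (Citrus junos, Cj), which tolerates alkaline conditions, was subtracted from the same change in trifoliate orange (Poncirus trifoliata, Pt), which is sensitive to them. A positive difference therefore means that the change in Pt lay above that in Cj, and a negative one that it lay below. All 100 listed miRNAs of the series entered, 49 known and 51 predicted, with csi-miRN52 counted once although its 4 hairpins are listed separately. The low-count filter kept 96 for the tests and left out csi-miR395, csi-miR399a, csi-miR530b and csi-miR3953.

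The seedlings grew for 8 weeks in nutrient solution at pH 6.5, which the study took as the normal condition, at pH 8.0 or at pH 9.5. Small RNA was sequenced from their roots. The 12 libraries of the contrast were 3 of each rootstock at pH 6.5 and 3 of each at pH 9.5, and each came from a pool of 3 seedlings. No transgene or other treatment was involved. The rootstocks are different species (Pt is also named Citrus trifoliata), so a difference between them is one between 2 genotypes. No source states that the pools grew in separate vessels, so p-values measure the spread between pools, which may be partly technical. Reads were matched to the genome of sweet orange, which is neither rootstock, and whether reads of Cj and Pt matched it equally well was not tested. That the tissue was root cannot be checked from miRNAs. The contrast libraries held 329859 to 711609 listed miRNA reads, with a median of 478858, and 3 reads corresponded to between 4.22 and 9.09 counts per 1000000 listed reads. These limits cover counting error only, since PCR copies were not told apart.

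Plant miRNAs are short RNAs cut from hairpin precursors. Loaded into an Argonaute protein, they guide the cleavage or silencing of transcripts that match them almost along their whole length, and the bases 2 to 8, the seed, take part in this match. In roots, known families act on transcription factors that pattern the root and pass on auxin signals (MIR160, MIR164, MIR166, MIR167, MIR171, MIR396). Others follow mineral supply. MIR397, MIR398 and MIR408 accumulate in Arabidopsis when copper is short and act on transcripts of copper proteins, MIR399 and MIR827 accumulate when phosphate is short, and MIR395 when sulfate is short.

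A difference in response was called for 18 of the 96 tested miRNAs (18.8%) by the edgeR quasi-likelihood test at a Benjamini-Hochberg adjusted p under 0.05. It was positive for 6 (6.25%) and negative for 12 (12.5%). At an unadjusted p under 0.05 the numbers were 13 and 21. By themselves the changes were called for 27 miRNAs in Cj (28.1%), 12 up (12.5%) and 15 down (15.6%), and for 29 in Pt (30.2%), 16 up (16.7%) and 13 down (13.5%). The split between directions depended on the scaling. With library sizes taken from the totals behind the authors' TPM values, or without the 5 most abundant miRNAs, the median difference of all miRNAs moved by -0.21 or -0.23, and 27 miRNAs were called in each case, 5 positive and 22 negative, of which 17 were among the 18. In Pt the same scalings gave 31 called changes, 11 up and 20 down. Without Pt pH 6.5 replicate 1 a difference was called for 29 miRNAs, and without Pt pH 6.5 replicate 2 for 13.

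The sequences of the 13 miRNAs whose difference was called in every alternative in which they were tested, and of csi-miR408, which completes the copper-related miRNAs, are shown because the results turn on them. They are the mature sequences as deposited, 5′ to 3′, and capitals mark the seed.
csi-miR398: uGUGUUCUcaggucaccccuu
csi-miR397: uCAUUGAGugcagcguugaug
csi-miR408: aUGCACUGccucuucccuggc
csi-miRN52: uGAGCUGUuuggcuauucucgc
csi-miRN50: aCAGGAGGuggaacaaauaugaaa
csi-miRN47: aUUUUAAAacgugcggaugucugc
csi-miR479: uGUGAUAUugguucggcucauc
csi-miR473: aCUCUCCCucaagggcuucgc
csi-miR396b: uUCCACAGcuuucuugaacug
csi-miR396c: uUCAAGAAaucugugggaag
csi-miRN20: uUCCACGGcuuucuugaacgu
csi-miR394: uUGGCAUUcuguccaccucc
csi-miRN34: uUGUCGCCggagagauagcacc
csi-miRN23: cACGCGGCcaucucucauuga
Each of these seeds belonged to 1 listed miRNA only. Among the 18 called miRNAs a seed was shared with other listed miRNAs for csi-miR166d, which has it in common with csi-miR166a, csi-miR166b, csi-miR166c and csi-miR166e-3p, and for csi-miR164, which has it in common with csi-miRN09. The authors placed the hairpins of the predicted miRNAs on the genome of Citrus sinensis, whose release the sources used here do not name. csi-miRN34 lay on chromosome 6 from 19944457 to 19944706, csi-miRN23 on chromosome 5 from 10687126 to 10687375 and csi-miRN20 on chromosome 1 from 28388128 to 28388377. csi-miRN50 lay on chromosome 3 from 18988847 to 18989096, csi-miRN47 on the unplaced sequences from 51273814 to 51274063, and the first of the 4 hairpins of csi-miRN52 on chromosome 2 from 8711310 to 8711559. No gene annotation of this genome was used here.

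**Figure D1:**
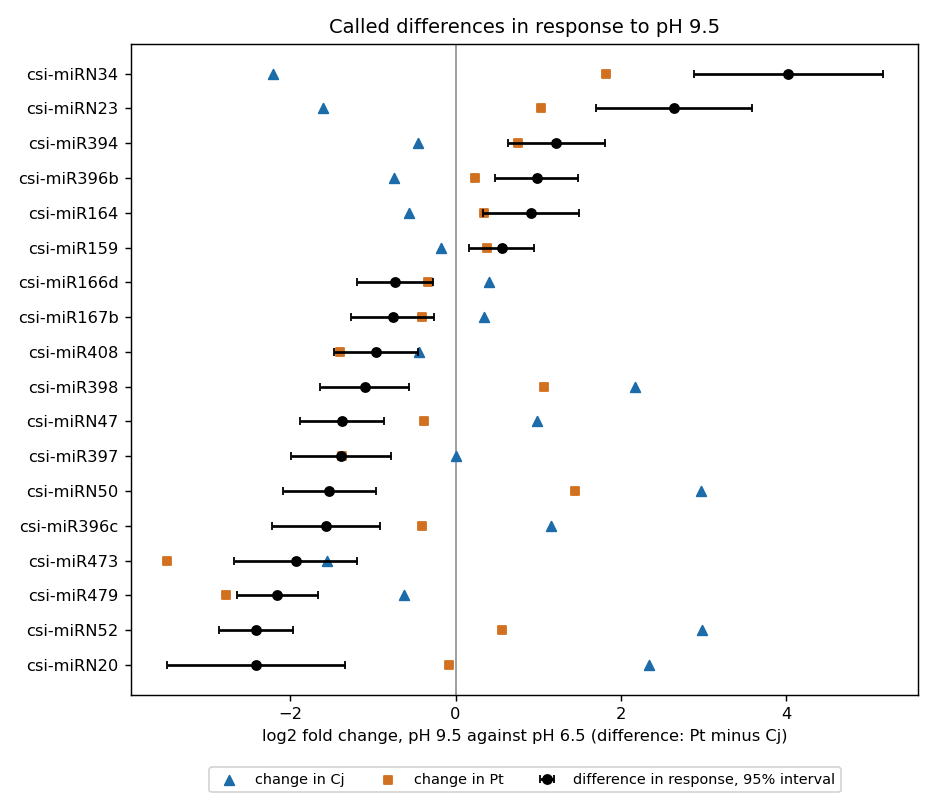
Difference in response to pH 9.5 (circles, log2, Pt minus Cj) of the 18 called miRNAs with 95% intervals, beside the change in Cj (triangles) and in Pt (squares). The differences run from -2.41 for csi-miRN20 and csi-miRN52 to 4.03 for csi-miRN34, and no interval crosses 0.

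The 3 copper-related miRNAs all had a called negative difference, beside 12 of the 96 tested miRNAs (12.5%), but they came to it in different ways. csi-miR398 rose in both rootstocks and rose less in Pt, while csi-miR397 and csi-miR408 fell in Pt and had no called change in Cj. csi-miR398 acts on transcripts of Cu/Zn superoxide dismutases, csi-miR397 on those of laccases, which polymerise lignin, and csi-miR408 on those of plantacyanin, a small copper protein.

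csi-miR398 stood at 2859, 3537 and 2773 normalised counts per 1000000 listed reads (CPM, with library sizes scaled by the TMM method) in the Cj libraries at pH 6.5 and at 10807, 13848 and 16509 CPM at pH 9.5. In Pt it stood at 17463, 13026 and 18803 CPM at pH 6.5 and at 36359, 31663 and 35310 CPM at pH 9.5. All pH 9.5 libraries of a rootstock lay above its pH 6.5 libraries, and Pt at pH 6.5 overlapped Cj at pH 9.5. The log2 change was 2.17 ± 0.19 (SE) in Cj and 1.07 ± 0.19 in Pt, and the difference was -1.10 ± 0.26 (95% interval -1.64 to -0.56, edgeR adjusted p = 0.00231). In whole roots, here and for every miRNA that follows, a lower level from fewer cells of a type and one from less RNA per cell cannot be told apart.

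csi-miR397 stood at 1164, 1173 and 1025 CPM in Cj at pH 6.5 and at 859, 1175 and 1356 CPM at pH 9.5. The Pt libraries held 1091, 1158 and 1429 CPM at pH 6.5 and 509, 430 and 480 CPM at pH 9.5. The Cj groups overlapped, and the Pt libraries at pH 9.5 were the lowest of all. The change was 0.01 ± 0.21 in Cj and -1.37 ± 0.21 in Pt, which gave a difference of -1.39 ± 0.29 (edgeR adjusted p = 0.000776).

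csi-miR408 stood at 20597, 19039 and 16972 CPM in Cj at pH 6.5 and at 11084, 14441 and 16343 CPM at pH 9.5. Levels in Pt were 13784, 17641 and 19532 CPM at pH 6.5 and 5576, 6174 and 7632 CPM at pH 9.5. The pH 9.5 libraries lay below the pH 6.5 libraries in both rootstocks, with a wider gap in Pt. The change was -0.44 ± 0.18 in Cj (edgeR adjusted p = 0.0624) and -1.40 ± 0.18 in Pt (5.85e-07). The difference was -0.96 ± 0.25 (edgeR adjusted p = 0.00467), and it missed the threshold when Cj pH 6.5 replicate 3, Pt pH 6.5 replicate 2 or Pt pH 9.5 replicate 1 was left out (adjusted p up to 0.0662).

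Ratios of reads within a library do not depend on its size or on the normalisation. The ratio of csi-miR398 to csi-miR408 went from 0.163 ± 0.0235 (SD, n = 3) to 0.981 ± 0.0262 in Cj and from 0.989 ± 0.265 to 5.43 ± 0.981 in Pt. Cj at pH 9.5 thus had a ratio close to that of Pt at pH 6.5. The ratio of csi-miR397 to csi-miR408 moved far less. It went from 0.0595 ± 0.00266 to 0.0806 ± 0.0028 in Cj, where the libraries of the pH values did not overlap, and from 0.0726 ± 0.00676 to 0.0746 ± 0.0148 in Pt, where they did.

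**Figure D2:**
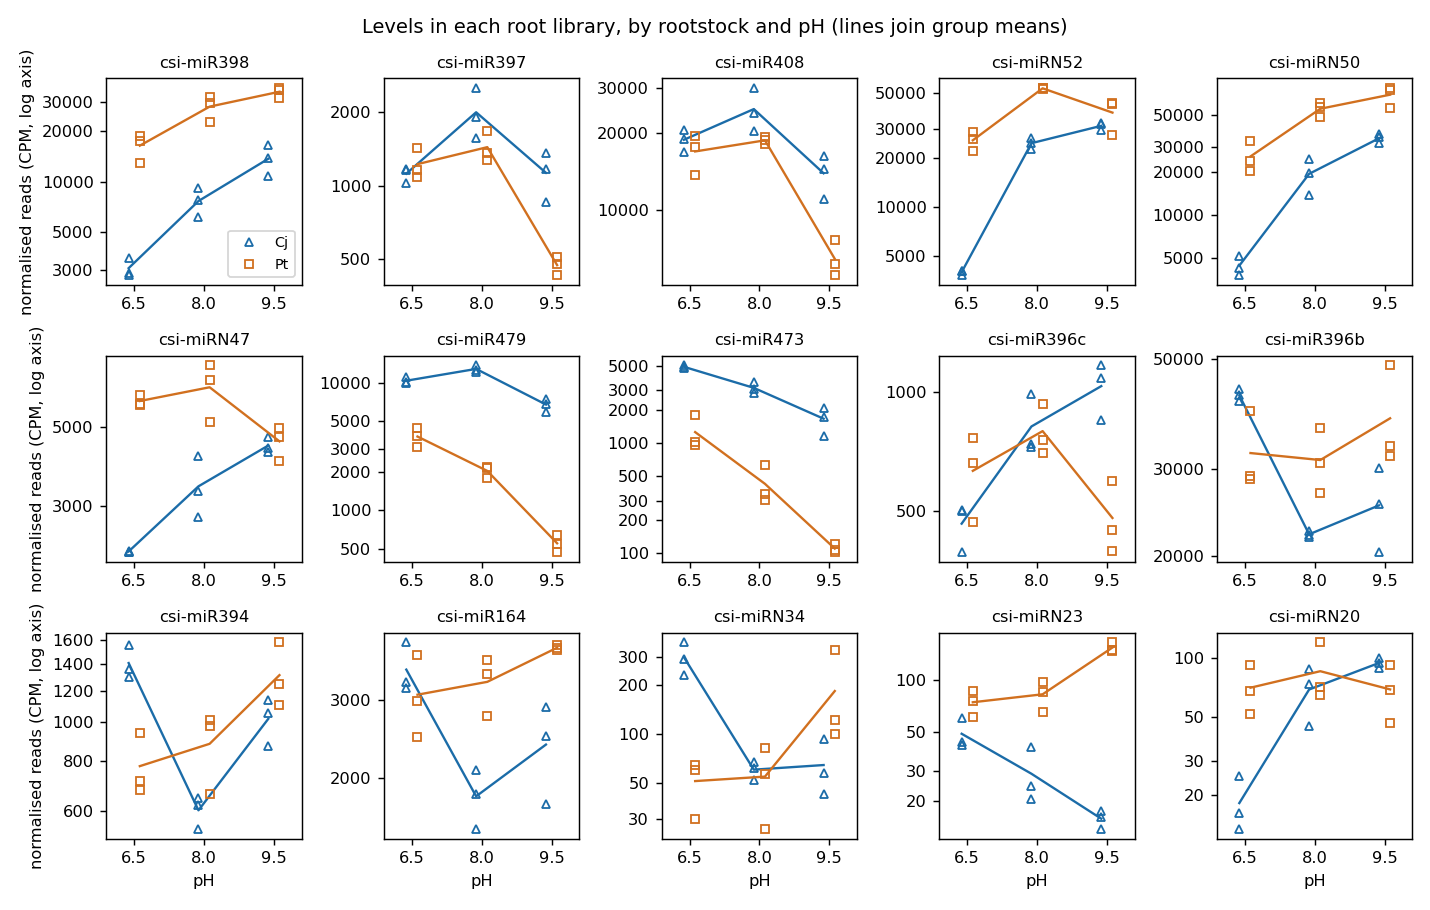
Normalised reads (CPM, log axis) of 15 of the 18 miRNAs in each library of Cj (triangles) and Pt (squares) by pH, with lines through the group means. csi-miR398 rises in both rootstocks, csi-miR397 and csi-miR408 drop in Pt at pH 9.5, and the lines of csi-miRN34 and csi-miRN23 go in opposite directions.

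The predicted csi-miRN52 and csi-miRN50 had the largest rises in Cj, and both rose less in Pt. csi-miRN52 is 22 nt long with no assigned family. It stood at 4065, 3816 and 4075 CPM in Cj at pH 6.5 and at 29559, 32126 and 32454 CPM at pH 9.5. For Pt the values were 28934, 25896 and 21942 CPM at pH 6.5 and 27621, 42755 and 43062 CPM at pH 9.5. The Cj groups were far apart, while Pt pH 9.5 replicate 1 fell inside the range of the Pt libraries at pH 6.5. The change was 2.98 ± 0.16 in Cj, a 7.87-fold rise, and 0.56 ± 0.15 in Pt, and the difference was -2.41 ± 0.22 (edgeR adjusted p = 2.71e-09). The rise in Pt by itself was no longer called without Pt pH 9.5 replicate 2 (edgeR adjusted p = 0.0534).

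csi-miRN50, of 24 nt and assigned to MIR9560, stood at 3763, 4257 and 5160 CPM in Cj at pH 6.5 and at 36536, 34881 and 31585 CPM at pH 9.5. In Pt it stood at 32943, 23668 and 20277 CPM at pH 6.5 and at 55718, 75049 and 77631 CPM at pH 9.5. Neither rootstock had overlapping groups. The change was 2.97 ± 0.21 in Cj and 1.44 ± 0.20 in Pt, with a difference of -1.53 ± 0.27 (edgeR adjusted p = 0.000123). Within a library, csi-miRN52 and csi-miRN50 had nearly equal reads in Cj at both pH values (ratio 0.922 ± 0.147 and 0.919 ± 0.109) and in Pt at pH 6.5 (1.02 ± 0.121), but in Pt at pH 9.5 csi-miRN52 had fewer (0.54 ± 0.0391). Length matters for the reading of csi-miRN50, since plant small RNAs of 24 nt usually guide DNA methylation rather than the cleavage of transcripts. However, the study's degradome sequencing, which captures cut transcripts, lists a cleavage site in Cj matched to the csi-miRN50 sequence. It lies in a category that the study kept as reliable, and was not examined here.

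csi-miRN47, also of 24 nt and without a family, stood at 2239, 2224 and 2213 CPM in Cj at pH 6.5 and at 4243, 4364 and 4695 CPM at pH 9.5. The Pt libraries held 6167, 5817 and 5787 CPM at pH 6.5 and 4013, 4694 and 4963 CPM at pH 9.5. The groups were separate in both rootstocks, with pH 9.5 above pH 6.5 in Cj and below it in Pt, and the rootstocks overlapped at pH 9.5. Only the rise in Cj was called (0.99 ± 0.17, against -0.38 ± 0.17 in Pt, edgeR adjusted p = 0.11), and the difference was -1.37 ± 0.24 (edgeR adjusted p = 0.000123).

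csi-miR479 and csi-miR473 fell in both rootstocks and fell more in Pt, where they had started lower. csi-miR479 was assigned to MIR171_2. MIR171 is known for acting on SCARECROW-like GRAS transcription factors, through the arm opposite to csi-miR479. It stood at 11027, 10022 and 10052 CPM in Cj at pH 6.5 and at 5901, 6844 and 7491 CPM at pH 9.5. Levels in Pt were 4430, 3798 and 3134 CPM at pH 6.5 and 639, 469 and 548 CPM at pH 9.5. Every Pt library lay below every Cj library, and within each rootstock the pH groups did not overlap. The change was -0.62 ± 0.17 in Cj and -2.78 ± 0.18 in Pt, a 6.86-fold fall, and the difference was -2.16 ± 0.24 (edgeR adjusted p = 1.05e-07).

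The sequence of csi-miR479 pairs with that of csi-miR171b at 18 of 20 facing bases, and each was found in the hairpin listed for the other, as the 2 arms of 1 precursor are. csi-miR171b, the less abundant of them, stood at 123, 115 and 109 CPM in Cj at pH 6.5 and at 37.4, 36.9 and 42.9 CPM at pH 9.5. For Pt the values were 36.5, 23.7 and 57.9 CPM at pH 6.5 and 5.59, 7.19 and 0 CPM at pH 9.5. Its changes of -1.55 ± 0.34 in Cj and -2.95 ± 0.52 in Pt were both called, and its difference of -1.40 ± 0.65 was not (95% interval -2.74 to -0.06, edgeR adjusted p = 0.125), with 7 reads in all in Pt at pH 9.5. The ratio of csi-miR479 to csi-miR171b went from 89.6 ± 2.19 to 173 ± 13.8 in Cj, so the arms did not fall in proportion there. Of the other MIR171 members, csi-miR171a had a difference of -0.85 ± 0.33 (edgeR adjusted p = 0.0688), called in 6 of the 23 alternatives, and csi-miRN05 one of -1.68 ± 0.93 (0.194). csi-miRN05 had 16 reads in Cj at pH 6.5. Its listed hairpin holds csi-miR171a, with which it pairs at 17 of 19 facing bases. All 4 members had negative values, with a median of -1.54 against -0.07 over all tested miRNAs. Being paired in this way, they are not 4 separate observations. Of them 1 was called, beside negative calls for 12.5% of all tested miRNAs.

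csi-miR473 belongs to the MIR477 family. It stood at 5066, 4732 and 4801 CPM in Cj at pH 6.5 and at 1161, 1719 and 2072 CPM at pH 9.5. In Pt it stood at 1020, 959 and 1768 CPM at pH 6.5 and at 102, 122 and 107 CPM at pH 9.5. The pH groups were separate in each rootstock, and the fall in Pt was 11.2-fold. The change was -1.56 ± 0.25 in Cj and -3.49 ± 0.28 in Pt, with a difference of -1.93 ± 0.36 (edgeR adjusted p = 0.000202).

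csi-miR477b shares 18 consecutive bases with csi-miR473, so reads could have been counted under either name. Its changes were -1.48 ± 0.19 in Cj and -2.15 ± 0.21 in Pt, and its difference of -0.67 ± 0.28 was not called (edgeR adjusted p = 0.0825). Summed, the pair had a difference of -1.28 ± 0.30 (edgeR adjusted p = 0.0025 over 83 miRNAs and sums). The proportion of csi-miR473 to csi-miR477b was nearly the same at both pH values in Cj (0.232 ± 0.0155 and 0.217 ± 0.0124) and went from 0.786 ± 0.28 to 0.309 ± 0.0436 in Pt. csi-miRN27, the third member, had 1 read in all in Pt at pH 6.5 and 0 reads at pH 9.5, and 160 and 112 reads in Cj, so no fold for Pt is given.

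**Figure D3:**
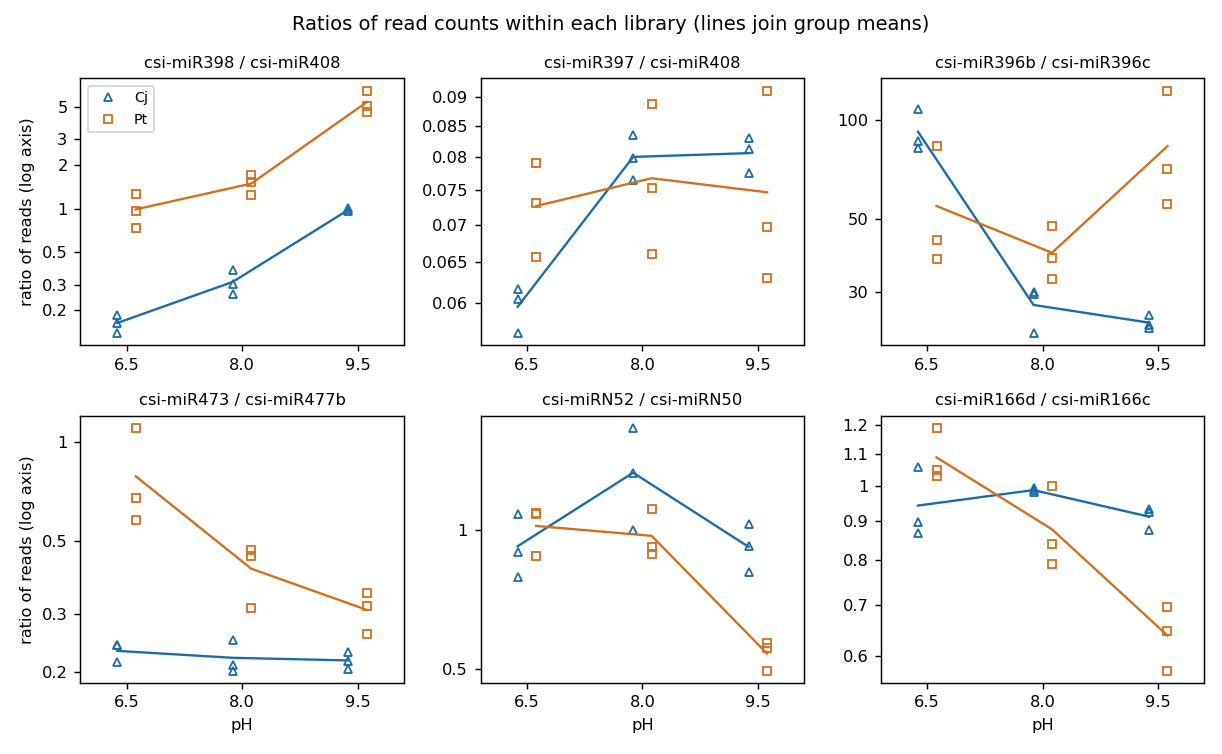
Ratios of read counts within each library (log axis) for 6 pairs of miRNAs in Cj (triangles) and Pt (squares) by pH, with lines through the group means. csi-miR398 over csi-miR408 rises in both rootstocks, while csi-miR473 over csi-miR477b, csi-miRN52 over csi-miRN50 and csi-miR166d over csi-miR166c are lower at pH 9.5 than at pH 6.5 in Pt, with group means of 0.309, 0.54 and 0.638 at pH 9.5.

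The MIR396 family acts on growth-regulating factors, which promote cell proliferation, and 3 of its 4 listed members had called differences, in both directions, beside 18 of all 96 (18.8%). csi-miR396b, the most abundant of them, stood at 41105, 43484 and 42303 CPM in Cj at pH 6.5 and at 20315, 25492 and 30065 CPM at pH 9.5. The Pt libraries held 39261, 28610 and 29019 CPM at pH 6.5 and 48746, 31914 and 33300 CPM at pH 9.5. The Cj groups were separate and the Pt groups overlapped. It fell in Cj (-0.74 ± 0.17), had no called change in Pt (0.23 ± 0.17, edgeR adjusted p = 0.351), and differed by 0.98 ± 0.24 (edgeR adjusted p = 0.00345).

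csi-miR396c stood at 499, 502 and 393 CPM in Cj at pH 6.5 and at 850, 1089 and 1175 CPM at pH 9.5. Levels in Pt were 470, 661 and 767 CPM at pH 6.5 and 395, 449 and 597 CPM at pH 9.5. It rose in Cj (1.16 ± 0.22), where the groups were separate, with -0.41 ± 0.22 in Pt (edgeR adjusted p = 0.18), where they overlapped. The difference was -1.57 ± 0.32 (edgeR adjusted p = 0.000464). The sequence of csi-miR396c pairs with that of csi-miR396b at 17 of 18 facing bases, as an opposite strand does, though neither was found in the hairpin listed for the other. It pairs equally well with csi-miRN20, the next miRNA described, again without a shared listed hairpin. The ratio of csi-miR396b to csi-miR396c went from 92.2 ± 13.6 to 24.3 ± 1.15 in Cj and from 54.9 ± 24.9 to 83.4 ± 35.5 in Pt, where the libraries of the pH values overlapped.

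csi-miRN20, of which 12 consecutive bases occur in csi-miR396b, was far less abundant. It stood at 16.3, 25 and 13.4 CPM in Cj at pH 6.5 and at 88.7, 99.2 and 93.7 CPM at pH 9.5. For Pt the values were 51.5, 91.8 and 67.6 CPM at pH 6.5 and 46.6, 68.3 and 91.8 CPM at pH 9.5. Cj at pH 6.5, with 25 reads over its 3 libraries, was the only group that stood apart. The change was 2.34 ± 0.40 in Cj and -0.08 ± 0.33 in Pt, and the difference was -2.41 ± 0.52 (95% interval -3.49 to -1.34, edgeR adjusted p = 0.000879). The fourth member, csi-miRN32, in whose listed hairpin csi-miR396b was found, had 0 reads in Cj at pH 6.5 and 1 at pH 9.5. Pt held 177 and 397 reads. The difference of csi-miRN32 was -0.57 ± 0.98 (edgeR adjusted p = 0.739). With so few reads in Cj this value shows neither a difference nor its absence.

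The predicted csi-miRN34 and csi-miRN23 were the only 2 of the 96 miRNAs whose changes were called in both rootstocks in opposite directions. csi-miRN34, of 22 nt and assigned to MIR3627, stood at 369, 290 and 232 CPM in Cj at pH 6.5 and at 93.4, 57.7 and 42.9 CPM at pH 9.5. In Pt it stood at 30.1, 60.1 and 64.4 CPM at pH 6.5 and at 330, 101 and 122 CPM at pH 9.5. It was higher in Cj at pH 6.5 and higher in Pt at pH 9.5, with no overlap at either pH. The change was -2.21 ± 0.39 in Cj and 1.82 ± 0.39 in Pt, and the difference of 4.03 ± 0.55 (95% interval 2.89 to 5.17, edgeR adjusted p = 3.35e-06) was the largest of the 96. Pt pH 9.5 replicate 1 held the highest value, and without it the rise in Pt was 1.15 and the difference 3.33, both still called. The rise in Pt kept its call in all 16 alternatives that bear on it, by edgeR and the other tools (adjusted p up to 0.0209).

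csi-miRN23, of 21 nt and without a family, stood at 44.1, 60.4 and 42.4 CPM in Cj at pH 6.5 and at 16.3, 13.8 and 17.6 CPM at pH 9.5. The Pt libraries held 85.9, 75.9 and 61.1 CPM at pH 6.5 and 149, 146 and 165 CPM at pH 9.5. The groups were separate in each rootstock, and Pt lay above Cj at both pH values. It fell in Cj (-1.60 ± 0.37) on 67 and 22 reads and rose in Pt (1.04 ± 0.27), with a difference of 2.65 ± 0.46 (edgeR adjusted p = 0.000112). The other listed member of MIR3627, csi-miRN30, had 1 read in Pt at each of these pH values and is not compared.

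csi-miR394 and csi-miR164 had a positive difference made of a value below 0 in Cj and above 0 in Pt, of which 1 side was called in each. csi-miR394 acts on the transcript of an F-box protein. It stood at 1561, 1358 and 1295 CPM in Cj at pH 6.5 and at 871, 1055 and 1134 CPM at pH 9.5. Levels in Pt were 943, 677 and 713 CPM at pH 6.5 and 1585, 1102 and 1245 CPM at pH 9.5. The groups were separate in each rootstock, with pH 9.5 below pH 6.5 in Cj and above it in Pt. The change was -0.46 ± 0.20 in Cj (edgeR adjusted p = 0.0778) and 0.76 ± 0.20 in Pt (0.00518), and the difference was 1.22 ± 0.29 (edgeR adjusted p = 0.00216).

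csi-miR164 acts on NAC transcription factors, among them regulators of lateral root formation. It stood at 4058, 3299 and 3191 CPM in Cj at pH 6.5 and at 1754, 2494 and 2900 CPM at pH 9.5. For Pt the values were 3794, 2482 and 2984 CPM at pH 6.5 and 3884, 4002 and 3932 CPM at pH 9.5. Again both rootstocks had separate groups. It fell in Cj (-0.56 ± 0.20), with 0.35 ± 0.20 in Pt (edgeR adjusted p = 0.193). The difference of 0.91 ± 0.28 (edgeR adjusted p = 0.0198) missed the threshold when Cj pH 6.5 replicate 1, Pt pH 6.5 replicate 2 or Pt pH 9.5 replicate 2 was left out (adjusted p up to 0.0744). The fall in Cj by itself kept its call in 11 of 16 alternatives.

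The remaining 3 called differences were the smallest of the 18, and each was lost in several fits with 1 library left out. csi-miR159, which acts on GAMYB-like transcription factors, was the most abundant miRNA, with 29.1% to 40.9% of the listed reads on average in the 4 groups. It stood at 307809, 307241 and 279519 CPM in Cj at pH 6.5 and at 204304, 285068 and 302145 CPM at pH 9.5. In Pt it stood at 431092, 418586 and 366306 CPM at pH 6.5 and at 522072, 511985 and 548683 CPM at pH 9.5. The Cj groups overlapped and the Pt groups did not. The change was -0.18 ± 0.14 in Cj (edgeR adjusted p = 0.286) and 0.38 ± 0.14 in Pt (0.0331). In Pt the change kept its call in 6 of 16 alternatives. The difference of 0.56 ± 0.19 (edgeR adjusted p = 0.0405) stayed under the threshold in 4 of 23 alternatives, with an adjusted p up to 0.197. It was lost in each fit without 1 of the 12 libraries of the contrast. Because csi-miR159 takes so many reads, its own level moves the totals of all others, and its part in their differences was not tested beyond the scaling alternatives. On library sizes without the 5 most abundant miRNAs its own difference was 0.34.

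csi-miR166d targets HD-ZIP III transcription factors, which pattern the vascular tissue. It stood at 40318, 49428 and 40702 CPM in Cj at pH 6.5 and at 51749, 58833 and 61243 CPM at pH 9.5. The Pt libraries held 76395, 74045 and 74958 CPM at pH 6.5 and 53653, 57871 and 67698 CPM at pH 9.5. The groups were separate in both rootstocks, yet neither change was called (0.40 ± 0.16 in Cj and -0.33 ± 0.16 in Pt, edgeR adjusted p = 0.0624 and 0.124). The difference of -0.73 ± 0.22 (edgeR adjusted p = 0.0198) kept its call in 15 of 22 alternatives, those lost being fits without 1 library (adjusted p up to 0.143).

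The MIR166 sequences from the 3p arm differ at their 3′ ends only. csi-miR166a and csi-miR166e-3p had the same reads in all but 1 of 18 libraries, where they differed by 1 read, so some reads were counted under several names and values of single members are uncertain. csi-miR166c, which lies wholly inside csi-miR166d, had a difference of 0.00 ± 0.21, csi-miR166a and csi-miR166e-3p of -0.04 ± 0.21 and csi-miR166b of -0.37 ± 0.21. Summed, the 3p members had a difference of -0.39 ± 0.21, which was not called (edgeR adjusted p = 0.179 over 83 miRNAs and sums). Within a library, csi-miR166d over csi-miR166c went from 0.943 ± 0.105 to 0.912 ± 0.0306 in Cj and from 1.09 ± 0.084 to 0.638 ± 0.0611 in Pt.

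csi-miR167b acts on auxin response factors. It stood at 5921, 5180 and 5437 CPM in Cj at pH 6.5 and at 5646, 7084 and 8348 CPM at pH 9.5. Levels in Pt were 5087, 5709 and 5293 CPM at pH 6.5 and 3927, 3919 and 4260 CPM at pH 9.5. Only the Pt groups were separate, and neither change was called (0.35 ± 0.17 in Cj and -0.41 ± 0.17 in Pt, edgeR adjusted p = 0.107 and 0.076). The difference was -0.76 ± 0.24 (edgeR adjusted p = 0.0231), and it was lost without any 1 of 8 libraries (adjusted p up to 0.154).

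**Figure D4:**
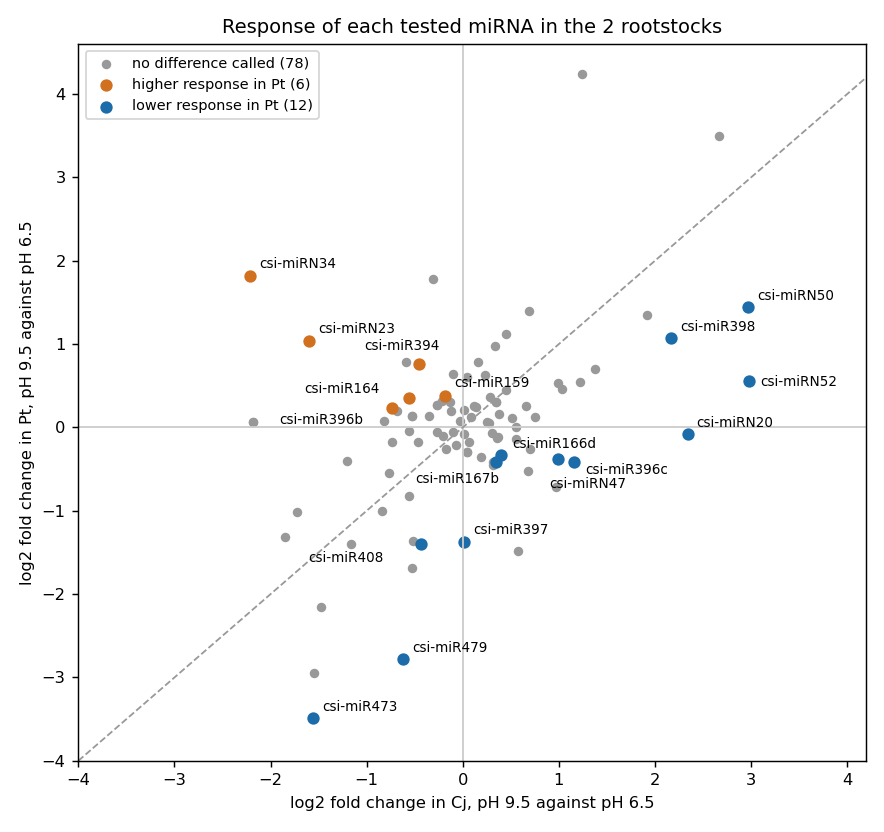
Log2 change from pH 6.5 to pH 9.5 in Cj (x axis) and Pt (y axis) of the 96 tested miRNAs, with the 18 called differences named and a dashed line where both changes are equal. The miRNAs with a called difference lie off the line, 6 above and 12 below it. Of the 18, 12 lie where the changes have opposite signs, beside 43 of all 96. A large difference by itself favours opposite signs. For csi-miR397 (0.01 in Cj) and csi-miRN20 (-0.08 in Pt) 1 of the changes was near 0.

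Across the 96 miRNAs the 2 changes had a Pearson correlation of 0.44 and a Spearman correlation of 0.31. Both changes had the same sign for 52. These are descriptions, since miRNAs are no independent replicates. Among the miRNAs with at least 30 reads in each group, 71 in number, the correlations were 0.44 and 0.30.

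Members of the phosphate and sulfate list had positive values without a call. csi-miR399e rose in both rootstocks, by 2.67 ± 0.40 in Cj and 3.50 ± 0.33 in Pt. It stood at 11.6, 16.7 and 26.8 CPM in Cj at pH 6.5, at 117, 83.1 and 154 CPM at pH 9.5, and in Pt at 42.9, 60.1 and 46.7 CPM and then at 885, 397 and 428 CPM. The pH groups were separate in each rootstock, and the difference of 0.83 ± 0.55 could lie anywhere from -0.29 to 1.95 (edgeR adjusted p = 0.263). csi-miR399b (0.71 ± 0.42, edgeR adjusted p = 0.219), csi-miR399d (0.74 ± 0.35, 0.125) and csi-miR827 (2.09 ± 1.45, 0.293) rose in Pt, with changes of 1.40, 0.64 and 1.78, and were not called in Cj.

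With the closely related MIR399 sequences summed, the change was 0.52 ± 0.23 in Cj and 1.36 ± 0.23 in Pt, and the difference was 0.84 ± 0.33 (edgeR adjusted p = 0.0556 over 83 miRNAs and sums). csi-miR827 had 5 and 4 reads in the Cj groups, and its difference rests on these. The list had a median of 0.78, beside -0.07 over all tested miRNAs. csi-miR399a, not tested, had 0 reads in Pt at pH 6.5 and 19 at pH 9.5, against 8 and 17 in Cj. csi-miR395, not tested, had 22 and 20 reads in Pt and 3 and 1 in Cj.

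**Figure D5:**
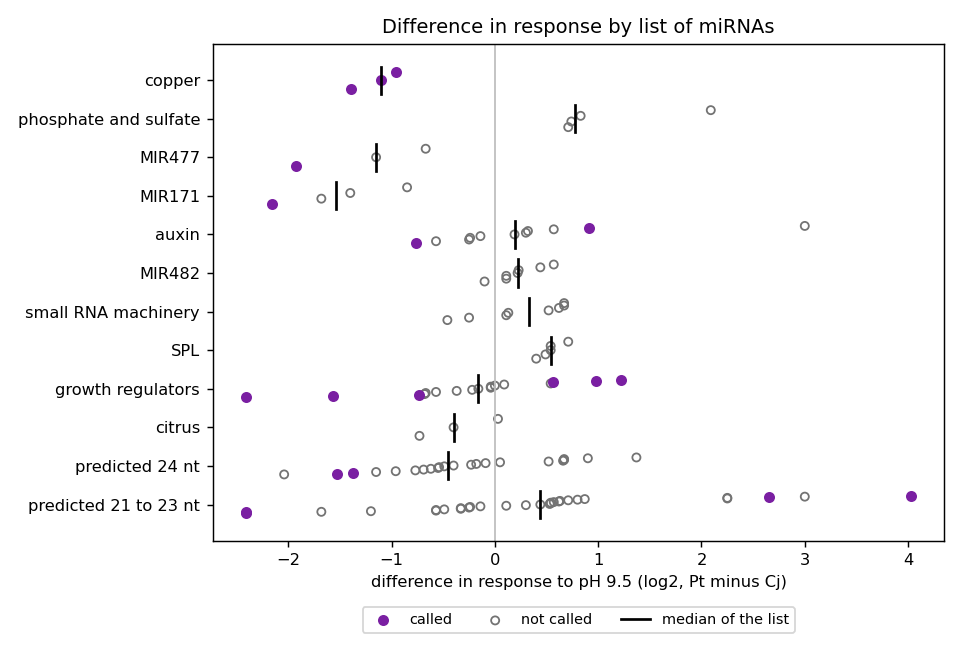
Difference in response to pH 9.5 (log2, Pt minus Cj) of the tested members of each list of miRNAs, filled where called, with a bar at the median. The 3 copper-related miRNAs are all called and below 0, and the 4 of the phosphate and sulfate list lie at 0.71 to 2.09 without a call.

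Of the 11 members of the auxin list 2 were called, csi-miR164 and csi-miR167b, in opposite directions, and the median was 0.19. That is about the share called among all tested miRNAs (18.8%). The 3 MIR160 members, which act on auxin response factors, had differences of -0.25 ± 0.34 (csi-miRN40), -0.24 ± 0.28 (csi-miRN43) and 0.57 ± 0.29 (csi-miRN45). Of these csi-miRN43 fell in both rootstocks (-1.16 ± 0.20 in Cj and -1.40 ± 0.20 in Pt), csi-miRN45 in Cj and csi-miRN40 in Pt. csi-miR390, which triggers the small RNAs of the TAS3 transcript, and its opposite arm csi-miRN19 had 0.32 ± 0.27 and 0.30 ± 0.34. csi-miR393, which acts on the auxin receptors TIR1 and AFB, had 0.19 ± 0.36 (95% interval -0.54 to 0.93), its opposite arm csi-miRN18 -0.57 ± 0.59, and csi-miRN09 -0.14 ± 0.54.

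csi-miRN28 was assigned to MIR167, though its seed is not that of csi-miR167b. It was the auxin list member nearest the threshold, with a difference of 3.00 ± 1.08 (edgeR adjusted p = 0.0506). It stood at 20.9, 16.7 and 24.6 CPM in Cj at pH 6.5 and at 49, 64.6 and 35.1 CPM at pH 9.5. For Pt the values were 4.29, 0 and 0 CPM at pH 6.5 and 16.8, 44.9 and 15.3 CPM at pH 9.5. The groups were separate in both rootstocks, and the rise in Pt was called, but Pt at pH 6.5 held 2 reads in all, so that the size of its fold rests on few reads. The difference was called in 7 of the 23 alternatives.

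No member of the SPL, MIR482 or small RNA machinery lists was called, beside 18 of all 96 tested miRNAs (18.8%). With 5, 7 and 8 tested members, these lists are too small to be set apart from that share. In the SPL list, made of the families MIR156 and MIR535, of which csi-miR156 acts on SPL transcription factors, all 5 values lay between 0.40 and 0.71 (median 0.54). The highest was csi-miRN49, which fell in both rootstocks (-1.72 ± 0.20 in Cj and -1.01 ± 0.20 in Pt, difference 0.71 ± 0.28, edgeR adjusted p = 0.0688). It was called in 3 of the 23 alternatives. The seed of csi-miRN49 is not that of csi-miR156. csi-miR156 had 0.49 ± 0.25, csi-miR535 0.40 ± 0.39, and csi-miRN07 and csi-miRN08, which have 1 sequence, the same reads and pair with csi-miR535 at 17 of 19 facing bases, 0.54 ± 0.30.

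In the MIR482 list, a family that acts on NBS-LRR resistance genes, the values of the 7 members ran from -0.10 (csi-miR472) to 0.57 (csi-miR482a-5p), with a median of 0.22. csi-miRN51, among the 5 most abundant miRNAs, had 0.44 ± 0.21 (edgeR adjusted p = 0.125). csi-miR482c fell in both rootstocks (-0.77 ± 0.17 in Cj and -0.55 ± 0.17 in Pt) with a difference of 0.22 ± 0.24. csi-miR482a-3p, csi-miRN48 and csi-miR482b had 0.11, 0.11 and 0.23. The 8 members of the small RNA machinery list ran from -0.46 to 0.67 with a median of 0.33. Their assigned families are known to act on DICER-LIKE, ARGONAUTE and SGS3 transcripts. However, csi-miRN02, csi-miRN14 and csi-miRN15, assigned to MIR168, are predicted sequences of 24 nt, and whether they act on such transcripts was not tested. The value of 0.67 belongs to both csi-miRN14 and csi-miRN15, which share their sequence and reads.

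Of 17 tested members of the growth regulator list 3 were called with a positive and 3 with a negative difference, all described above, beside 6.25% and 12.5% of all tested miRNAs. Of the 3 tested citrus miRNAs (csi-miR3951, csi-miR3952 and csi-miR3954), whose values ran from -0.73 to 0.03, none was called, beside 18.8% of all tested miRNAs. csi-miR3953 had 2 and 5 reads in Cj and 8 and 7 in Pt, and csi-miR530b had 11 and 7 reads in Cj and 6 and 16 in Pt, too few for a test. Predicted miRNAs of 24 nt had 2 called differences, both negative (csi-miRN50 and csi-miRN47), among 22, with a median of -0.45, and negative calls made up 12.5% of all tested miRNAs. Those of 21 to 23 nt had 2 in each direction among 29, with a median of 0.44. The 78 miRNAs without a called difference ran from -2.04 (csi-miRN11) to 3.00 (csi-miRN28).

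The difference in response is also the change in the gap between the rootstocks. At pH 6.5 Pt differed from Cj for 61 miRNAs and at pH 9.5 for 57 by the edgeR test. Of the 18 miRNAs 8 had a smaller gap at pH 9.5 than at pH 6.5, against 51 of all 96. The gap of csi-miRN52 went from 2.68 at pH 6.5 to 0.27 at pH 9.5, that of csi-miRN47 from 1.41 to 0.04 and that of csi-miRN20 from 1.94 to -0.48, and none of these 3 gaps was called at pH 9.5. The gap of csi-miR398 went from 2.43 to 1.33.

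For others a gap opened. csi-miR397, csi-miR408 and csi-miR167b differed little between the rootstocks at pH 6.5 (0.13, -0.15 and -0.04) and were lower in Pt at pH 9.5 (-1.26, -1.11 and -0.80). csi-miR473 and csi-miR479 were lower in Pt at both, by -1.96 and -1.45 at pH 6.5 and by -3.89 and -3.61 at pH 9.5. The gap of csi-miRN34 changed sign, from -2.50 to 1.53, and was called on both sides.

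In the libraries at pH 8.0 the same difference against pH 6.5 was called for 10 miRNAs and for 25 at an unadjusted p under 0.05. Both contrasts use the pH 6.5 libraries, so their values are set side by side only. Of the 18 miRNAs 8 were called there as well. The value at pH 8.0 was 1.44 for csi-miR394 (1.22 at pH 9.5) and 1.05 for csi-miR164 (0.91), and 0.89 for csi-miR396b (0.98). csi-miRN34 had 2.55 (4.03), csi-miRN52 -1.57 (-2.41), csi-miR479 -1.21 (-2.16) and csi-miRN50 -1.03 (-1.53). For the copper-related miRNAs the values at pH 8.0 were -0.55 (csi-miR398), -0.60 (csi-miR397) and -0.25 (csi-miR408), none of them called.

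The 18 miRNAs were not of one kind. Of them 12 were known and 6 predicted, beside 45 and 51 of all tested, 13 began with U beside 54 of 96, and 2 were 24 nt long beside 22 of 96. In 3 both rootstocks had called rises and in 2 both had called falls. In 3 only the rise in Cj was called, in 2 only the fall in Cj, in 2 only the rise in Pt and in 2 only the fall in Pt, and 2 had opposite changes. In the remaining 2, csi-miR166d and csi-miR167b, neither change was called. Some of these classes depend on the fit. The change of csi-miR167b in Pt stayed without a call in 8 of 16 alternatives, and that of csi-miR166d in Cj in 9 of 15. The call of csi-miR159 in Pt held in 6 of 16. Together the 18 took 49.2% ± 1.34 (SD, n = 3) of the listed reads in Cj at pH 6.5 and 51.6% ± 1.56 at pH 9.5, and 58.1% ± 1.73 and 61.2% ± 0.728 in Pt. Without csi-miR159 the shares were 16.2% ± 0.384 and 22.5% ± 0.999 in Cj and 20.1% ± 0.438 and 20.3% ± 0.583 in Pt.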

How the data were processed

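Small RNA libraries of Cj and Pt roots at the 3 pH values (3 biological replicates each, 18 in all) were used. The 2 degradome libraries were not analysed here. Per the study's methods, the authors removed structural RNAs with Bowtie, aligned the rest to the sweet orange genome, identified known miRNAs, and predicted further miRNAs with miRDeep2. The deposited counts are whole reads per mature miRNA without normalisation. The authors' TPM values, also deposited, are counts over a library total with no term for length, and served only to recover that total. The score deposited by the authors for predicted miRNAs was not used. Of 103 lines with values, 3 repeats of csi-miRN52 were dropped. Another line without values is not reported here. Identical sequences under 2 names (csi-miRN07 and csi-miRN08, csi-miRN14 and csi-miRN15, csi-miRN24 and csi-miRN25, csi-miRN41 and csi-miRN42) were kept as listed.

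Counts were fitted with edgeR 4.0.16 in R 4.3.3 (filterByExpr, minimum count 10 and minimum total 15, TMM, a mean for each of 6 groups, quasi-likelihood test). Per the submitters' processing notes, DESeq 1.10.1 was used between pairs of groups, for which edgeR stands in. P-values were adjusted over all 96 tested miRNAs, and a call is an adjusted p under 0.05. SE and 95% intervals were derived from the F statistic. CPM are counts per 1000000 reads on TMM-scaled library sizes. On simulated counts the test recovered 50.5% of 2-fold and 83% of 4-fold differences, and 6.64% of its calls were false. A miRNA without a call can therefore still differ. Alternatives were DESeq2 1.42.0 (test and size factors), limma 3.58.1 (voom), other library sizes, TMM from known miRNAs, no filter, sums of near-identical sequences, a replicate block, the 12 contrast libraries alone, each replicate left out and, chosen after seeing the data, Pt pH 8.0 replicate 1 (77255 reads) left out.

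The members, lists and tests were chosen with earlier results of these data known. Named were all called miRNAs, members of the copper, phosphate and sulfate, MIR477, MIR171, auxin, MIR482 and SPL lists, the 5 most abundant miRNAs and those with called changes of opposite sign. Lists follow the assigned family, opposite arms included. csi-miR3951, csi-miR3952, csi-miR3954, csi-miR319, csi-miRN11, csi-miRN30, csi-miRN32 and the MIR166 members beyond the rule were named for completeness after their values were seen.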

Additional observations from a re-analysis of the deposited data

Results flagged for a closer look

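A response that differed between the rootstocks by the test of the difference itself (edgeR, adjusted p under 0.05) singled out 18 miRNAs at pH 9.5. The log2 differences, Pt minus Cj, were 4.03 for csi-miRN34, 2.65 for csi-miRN23, 1.22 for csi-miR394, 0.98 for csi-miR396b, 0.91 for csi-miR164 and 0.56 for csi-miR159. Below 0 they were -0.73 for csi-miR166d, -0.76 for csi-miR167b, -0.96 for csi-miR408, -1.10 for csi-miR398, -1.37 for csi-miRN47 and -1.39 for csi-miR397. The lowest were -1.53 for csi-miRN50, -1.57 for csi-miR396c, -1.93 for csi-miR473, -2.16 for csi-miR479, -2.41 for csi-miRN52 and -2.41 for csi-miRN20.

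The same test singled out 10 miRNAs at pH 8.0. Their log2 differences were 2.55 for csi-miRN34, 1.44 for csi-miR394, 1.05 for csi-miR164, 0.98 for csi-miR390, 0.89 for csi-miR396b and 0.77 for csi-miR319, which acts on TCP transcription factors. Below 0 they were -0.76 for csi-miR167b, -1.03 for csi-miRN50, -1.21 for csi-miR479 and -1.57 for csi-miRN52. csi-miR390 and csi-miR319 had values of 0.32 and 0.54 at pH 9.5 and were not called there. At pH 8.0 the call of csi-miR319 held in 5 of 22 alternatives (adjusted p up to 0.164), that of csi-miR167b in 13, that of csi-miR390 in 18 and that of csi-miR164 in 19.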

How the results depend on the processing

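The difference in response was called for 17 to 23 miRNAs under most alternatives: 19 with DESeq2 size factors, 18 with the DESeq2 Wald test, 18 with TMM factors from known miRNAs, 18 without a filter, 22 with limma voom, 23 of 83 with near-identical miRNAs summed and 17 with the 12 contrast libraries alone. It was 27 both with the totals behind the TPM values as library sizes and with the 5 most abundant miRNAs left out of them, and leaving out 1 library of the contrast gave 13 to 29, the highest without Pt pH 6.5 replicate 1. No called difference changed its sign under any alternative. Of the 18, 13 kept their call wherever tested. csi-miR408 and csi-miR164 kept it in 20 of 23 alternatives, csi-miR166d in 15 of 22, csi-miR167b in 15 of 23 and csi-miR159 in 4 of 23. The cause was not tested. Leaving out 1 library gave 24 to 30 called changes in Cj, 22 to 30 in Pt, 56 to 64 gaps at pH 6.5 and 53 to 61 at pH 9.5. The difference at pH 8.0 was called for 10 miRNAs, for 17 on the TPM totals, for 16 on library sizes that leave out the 5 most abundant, for 17 with TMM factors from known miRNAs, and for 5 to 15 when a library was left out, 5 without Cj pH 6.5 replicate 1 and 6 without Pt pH 8.0 replicate 3.

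Deviations from the group means of same-numbered libraries correlated from -0.29 to 0.39 across miRNAs (median 0.03). Those of libraries with other numbers correlated from -0.41 to 0.32 (median 0.01), and 5 of 12 libraries correlated best with their own number. With 3 libraries in a group, these values cannot show whether replicate numbers pair the samples. With the replicate block the difference was called for 22 miRNAs, 7 positive and 15 negative, which included all 18. The change in Cj was called for 40 with the block and for 27 without it.

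Few reads limit csi-miRN05, csi-miRN20, csi-miRN23, csi-miRN28, csi-miRN32, csi-miR171b and csi-miR827, and reads counted under several names limit single members of MIR166.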

Other observations

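At pH 8.0 csi-miR390 was lower than at pH 6.5 in each Cj library, at 2878, 2671 and 3450 CPM against 4785, 4618 and 4530 CPM. At pH 9.5 the Cj libraries stood at 3157, 4382 and 5288 CPM. In Pt the libraries stood at 2066, 1554 and 1530 CPM at pH 6.5, at 2299, 2230 and 2027 CPM at pH 8.0 and at 2256, 1814 and 1842 CPM at pH 9.5. The lowest Cj mean of csi-miR390 was thus at the intermediate pH, where 1 library (3450 CPM) lay above the lowest pH 9.5 library (3157 CPM). So it was for csi-miR164 (1822 ± 276 CPM at pH 8.0 against 2383 ± 581 at pH 9.5, SD, n = 3) and csi-miR394 (604 ± 55.4 against 1020 ± 135). Among others, csi-miR159, csi-miR319 and csi-miR396b shared this low point, while csi-miR397 and csi-miR408 had their highest Cj mean there. Listed reads made up 65.5% to 70.1% of the TPM totals in the Cj pH 8.0 libraries, beside 73.1% to 77.7% in other Cj libraries. Whether scaling produced the low levels was not tested. The change from pH 8.0 to pH 9.5 was not tested here.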
